A study of Mus musculus with 48 samples.

Results

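Replication-dependent histone genes encode the linker histone H1 and the core histones H2A, H2B, H3 and H4 that package newly copied DNA. The genes described here are the mouse genes whose symbol starts with Hist1h, Hist2h, Hist3h or Hist4h and that had at least 10 counts in at least 4 libraries. The rule uses names and counts and not any difference between groups, but it was set with earlier results of these data known. Of the 24996 gene identifiers in the count table, 69 carried such a symbol and 66 passed the count rule. The 3 that did not pass were the testis-enriched H1f6, H2ac1 and H2bc1. The 66 comprised 5 H1, 18 H2A, 18 H2B, 12 H3 and 13 H4 genes, among them the pseudogenes H2af-ps2 and H2bu1-ps. Symbols are those of RefSeq, which gives Hist1h2br, an H2B gene, the name H4bc24.

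The libraries came from total RNA of suspended epidermal cells, taken from aged mice of 80 to 90 weeks and adult mice of 18 to 25 weeks. Mice of each age were killed at ZT0, ZT4, ZT8, ZT12, ZT16 and ZT20, where ZT is Zeitgeber time in hours with lights on at ZT0, and each of the 12 groups held 4 libraries. No genotype, strain, sex or treatment other than age and time is given in the sources used here, and the labels do not say that replicates are separate animals, so that p-values measure the spread between these samples. The 48 libraries held 40761084 to 49229498 counts, with a median of 45299729. The 6 basal keratinocyte markers Krt5, Krt14, Itga6, Itgb4, Col17a1 and Trp63 each had at least 4949 counts in every library. The series compares aged with adult epidermis around the day, and the questions put here are whether histone mRNA differed with age and whether it varied with the time of day in each age.

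Histone supply is tied to DNA replication. Most of these genes lack introns and lie in clusters, and their mRNAs end in a stem-loop instead of a poly(A) tail; stem-loop binding protein (SLBP) binds it, and the mRNA is made during S phase and degraded when replication stops. The libraries were made from total RNA after removal of ribosomal RNA, so that mRNAs without poly(A) were counted. In the epidermis the dividing cells are those of the basal layer and hair follicle, and S phase there is known to follow the time of day. In a bulk sample, fewer cells in S phase and less histone mRNA per cell cannot be told apart.

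The stem-loop was searched in annotated transcripts and not in the reads, so that it does not show which form of a transcript was counted. Its letters are given here because the annotated transcripts of H2bc4 and H2bc21, described singly below, lack them, as do those of other genes of the 66. In the transcripts of the GENCODE annotation of GRCm38, 41 of the 66 genes held the letters of the stem-loop, searched on the sense strand with any base allowed where the examples below differ, against 47 of all 55450 annotated genes (0.0848%). The loop began 21 to 58 bases after the stop codon, with a median of 31. In 26 genes it read as in H3c2 below, and the H4 genes had a stem of their own, as in H4c4 in 7 genes and as in H4c9 in 2. Of the 25 genes without these letters, 13 had transcripts annotated only to the stop codon, so that the window was not covered. The lines below give examples 5′ to 3′, as DNA letters of the annotated transcripts, with the 16 letters of stem and loop in capitals.
H2ac18: aaaaaGGCTCTTTTCAGAGCCaccca
H2ac20: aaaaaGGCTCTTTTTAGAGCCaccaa
H2bc12: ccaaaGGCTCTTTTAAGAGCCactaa
H3c2: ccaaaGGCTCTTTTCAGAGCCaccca
H4c4: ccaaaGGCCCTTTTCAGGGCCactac
H4c9: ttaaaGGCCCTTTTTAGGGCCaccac
The annotated transcripts of H2bc4 (1156 bases) and H2bc21 (2620 bases) run well past the stop codon and do not hold these letters. The lack does not set these genes apart. The letters were also absent from transcripts of H3c8 (530 bases), H4c1 (539 bases), H4c11 (774 bases) and H2bc23 (2015 bases). The means of H3c8, H4c1, H4c11 and H2bc23 were highest at ZT20 in aged and ZT0 in adult epidermis, as in most of the 66. Polyadenylated mRNAs of H2bc4 and H2bc21 have been described in human or mouse cells, as have those of H1f2, H2ac6 and H2bc12. The annotated transcripts of H1f2, H2ac6 and H2bc12 hold the letters, and their means too were highest at ZT20 in aged and ZT0 in adult epidermis.

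Promoters are shown because most of the 66 genes shared their times of highest and lowest level. RefSeq promoter windows (GRCm38.p6, 250 bases before to 50 after the start) were found for 59 of the 66 genes, 60 windows in all; H2af-ps2, H2bu1-ps, H2bc4, H2bc21, H3c7, H3c1 and H4c14 had none. The letters CCAAT, on either strand, were in 85.0% of the windows, in all 48 that were not of H4 genes and in 3 of 12 H4 windows, against 37.4% of 32851 mouse promoters. TATAAA was in 55.0% of windows against 13.6% of all promoters, and ATTTGCAT, the octamer described in H2B promoters, was in 20.0% against 1.74%, all of them H2A or H2B windows. TTTCGCGC or TTTGGCGC, a form of the E2F site, was in 15% against 0.813%, and CGTCCG in 3.33% against 6.56%. The windows of 9 pairs of neighbouring genes overlap, so that these shares count some letters again. The lines below give the 250 bases before the start of 4 genes on the gene's own strand, with matches to any of these letters, on either strand, in capitals.
H2ac18 (GRCm38.p6, chr3:96245247-96245496, plus strand): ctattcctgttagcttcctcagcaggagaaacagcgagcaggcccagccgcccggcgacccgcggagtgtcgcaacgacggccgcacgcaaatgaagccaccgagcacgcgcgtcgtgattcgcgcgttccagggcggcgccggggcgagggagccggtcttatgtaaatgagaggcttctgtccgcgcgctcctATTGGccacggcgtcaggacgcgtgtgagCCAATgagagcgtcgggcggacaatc
H2bc12 (GRCm38.p6, chr13:22035571-22035820, plus strand): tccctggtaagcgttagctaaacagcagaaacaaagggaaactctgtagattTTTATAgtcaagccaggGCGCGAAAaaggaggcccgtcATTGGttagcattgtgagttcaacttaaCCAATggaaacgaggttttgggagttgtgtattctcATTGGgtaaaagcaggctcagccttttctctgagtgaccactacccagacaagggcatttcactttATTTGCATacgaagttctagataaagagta
H3c2 (GRCm38.p6, chr13:23752095-23752344, plus strand): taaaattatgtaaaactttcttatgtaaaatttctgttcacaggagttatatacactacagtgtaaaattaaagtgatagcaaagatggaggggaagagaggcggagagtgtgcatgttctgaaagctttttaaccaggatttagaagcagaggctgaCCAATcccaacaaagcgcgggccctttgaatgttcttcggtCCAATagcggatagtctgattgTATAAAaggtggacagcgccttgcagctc
H4c12 (GRCm38.p6, chr13:21750554-21750803, minus strand): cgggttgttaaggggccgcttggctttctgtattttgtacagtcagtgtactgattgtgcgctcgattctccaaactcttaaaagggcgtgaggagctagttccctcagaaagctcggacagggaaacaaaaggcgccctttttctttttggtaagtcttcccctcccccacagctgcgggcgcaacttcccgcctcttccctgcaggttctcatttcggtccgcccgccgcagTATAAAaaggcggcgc
H2bc12 shares its window with the divergent H2ac12 and holds the octamer and the E2F letters beside CCAAT. Of the letters searched, the H4c12 window holds TATAAA alone.

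The 66 genes took between 0.0755% and 0.393% of the counts of a library, with a median of 0.178%. Levels are CPM, counts divided by the scaled library size, and between genes they are compared only per kilobase for the 59 genes whose RefSeq span was at most 1000 bases. The highest were H2ac13 at 228 CPM per kb, H4c12 at 227 and H2bc13 at 221, and the lowest was at 3.79. H3c10 led the H3 class at 141 CPM per kb and H1f2 the H1 class at 130. H4 genes made up 26% of the summed CPM, H2B genes 23.3%, H2A genes 20.7%, H1 genes 15.1% and H3 genes 15%. By position, the proximal block of the chromosome 13 cluster (23 genes, chr13:21715711-22043658) gave 49.6%, its distal block (28 genes, chr13:23531044-23764412) 34.7%, and the chromosome 3 cluster (10 genes, chr3:96219885-96270192) 11.1%; H2af-ps2, the chromosome 11 cluster (3 genes) and H4f16 on chromosome 6 gave the rest.

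These genes are near copies, and how the authors counted reads that match several genes is not given in the sources used here. Of all 75-base stretches of each gene, a median of 59.8% occurred in no other annotated transcript; 27 genes had under 50% and H2ac19 had none. Values of single genes are therefore uncertain where copies share reads. Only 14 genes had at least 90% of their stretches unique, among them H1f2, H1f4, H2aw, H2bc21, H4c4 and H4f16, and results are given for these 14 beside the whole. GENCODE places another gene over part of 24 of the 66, and the strand setting of the counting is not given in the sources used here.

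At ZT0, histone mRNA was lower in aged than in adult epidermis in every class. The summed level of the 66 genes was 2302, 1826, 2198 and 2228 CPM in the aged libraries and 3137, 3844, 3456 and 2863 CPM in the adult libraries. No aged library reached the lowest adult library, and the mean was 2138 ± 213 CPM in aged and 3325 ± 422 CPM in adult epidermis (SD, n = 4 each), a ratio of 0.643. The ratio was 0.705 for H1, 0.638 for H2A, 0.621 for H2B, 0.635 for H3 and 0.640 for H4, and in each class all 4 aged libraries lay below all 4 adult ones. Gene by gene, 60 of the 66 had all 4 aged libraries below all 4 adult libraries, against 8.92% of the 18044 genes tested. The 66 genes varied together between libraries, as described below, so that this and later counts of them do not stand for separate observations. The 6 that overlapped were H2ac6, H2ac7, H2ac21, H2bc21, H2bu1-ps and H4c18.

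**Figure D1:**
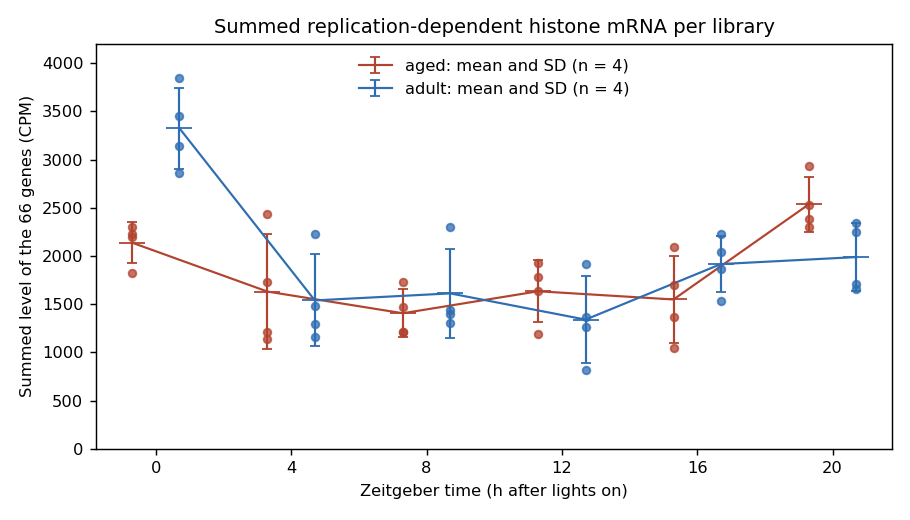
Summed CPM of the 66 histone genes (y axis) against Zeitgeber time (x axis), aged to the left of adult at each time; points are libraries, and lines join means with SD bars (n = 4). At ZT0 the aged libraries lie at 1826 to 2302 CPM and the adult libraries at 2863 to 3844 CPM.

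In edgeR's quasi-likelihood test with Benjamini-Hochberg adjustment over 18044 genes, 12 of the 66 were called lower in aged epidermis at ZT0 and 0 higher (adjusted p under 0.05); 4.46% of all genes tested were called, 2.02% lower and 2.44% higher. The log2 fold change of the 66 ran from -0.95 to -0.15 with a median of -0.64, against a median of -0.01 over all genes, and 50 of the 66 had an unadjusted p under 0.05 (20.6% of all genes). The 12 were the H2A genes H2aw, H2ac18, H2ac19, H2ac20 and H2af-ps2, the H2B genes H2bc4, H2bc7 and H2bc8, and the H4 genes H4c3, H4c4, H4c17 and H4f16. Of the 14 genes with at least 90% unique stretches, 3 were called, with a median of -0.54. The count of 12 depends on single libraries: it was 2 without aged replicate 2 at ZT0, 6 without aged replicate 1, 7 without aged replicate 4, 3 without adult replicate 2 and 6 without adult replicate 3 of that time, and 6 with total counts in place of scaled ones. All 12 were H2A, H2B or H4 genes; of the classes without a call by edgeR, 3 of 5 H1 and 8 of 12 H3 genes had an unadjusted p under 0.05. DESeq2 called 16 of the 66 lower and limma 12, and the shares of all genes called by these tools were not computed.

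H2bc4 (Hist1h2bc, chr13:23684199-23692480), an H2B gene, had the largest difference at ZT0. It had 16.7, 15.8, 17.7 and 16.6 CPM in aged libraries and 33.6, 39.2, 29.9 and 26.6 CPM in adult libraries. The 2 groups did not overlap, and the log2 fold change was -0.95 (SE 0.19, adjusted p = 0.00172). H2ac18 (Hist2h2aa1, chr3:96245497-96246052), an H2A gene with 3.91% unique stretches beside its copy H2ac19, had 23, 16.1, 23 and 22.1 CPM in aged and 33.5, 39.8, 29.9 and 28.2 CPM in adult libraries. Its aged replicate 2 stood below the other aged libraries, and the log2 fold change was -0.64 (SE 0.14, adjusted p = 0.00543). It was -0.43 (adjusted p = 0.122) when the aged library with the lowest and the adult library with the highest histone sum were both left out, and 1 of the 66 was then called.

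Of the H4 genes called at ZT0, H4c4 had 96.3% and H4f16 94.6% unique stretches. H4c4 had 68.1, 57.0, 71.4 and 73.4 CPM in aged and 103, 116, 107 and 90.7 CPM in adult libraries (log2 fold change -0.63, SE 0.17, adjusted p = 0.0220). H4f16 (chr6:136803993-136804431), which stands outside the large clusters, had 18.1, 15.2, 20.1 and 18.6 CPM in aged and 26.4, 31.7, 28.4 and 24.8 CPM in adult libraries (log2 fold change -0.63, SE 0.17, adjusted p = 0.0208). In both genes the aged libraries all lay below the adult ones. The linker histone gene H1f2 was at 117, 95.6, 102 and 88.7 CPM in aged and 132, 142, 144 and 148 CPM in adult libraries without overlap, but its difference of -0.49 (SE 0.19) had an adjusted p of 0.125. The H2B gene H2bc8 was called too (log2 fold change -0.94, adjusted p = 0.0342), with 13.8, 10.8, 12.4 and 14.1 CPM in aged and 22.1, 28.4, 25.1 and 22.4 CPM in adult libraries.

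Lists of cell cycle genes were read at the same time. They held 28 S phase genes (replication factors such as Mcm2 and Pcna) and 22 genes of G2 and mitosis (such as Mki67 and Top2a). At ZT0 edgeR called 0 in each list, against 4.46% of all genes, with median log2 fold changes of -0.12 and -0.03. In lists this small, 0 lies near that share. Summed, the G2 and mitosis genes had 875 to 1039 CPM in aged and 844 to 1122 CPM in adult libraries, and the S phase genes 569 to 628 CPM in aged and 559 to 674 CPM in adult libraries, so that both overlapped. Gene by gene, Pcna had all 4 aged libraries below all 4 adult libraries, while Mcm2, Mki67 and Top2a overlapped. The other genes of both lists were not read this way. Whether histone genes differed from these lists was not tested. Markers of other cells did move at ZT0: the 8 Langerhans cell and leukocyte genes (1 of 8 called lower, median -0.97) summed to 215 to 289 CPM in aged and 297 to 558 CPM in adult libraries, and the 9 genes of the outer root sheath and hair follicle stem cells (4 of 9 called lower, median -0.74) to 4024 to 4154 CPM in aged and 5224 to 6063 CPM in adult libraries. Of the 8 dermal fibroblast genes 1 was called lower (median -1.07), with sums of 56.9 to 68.4 CPM in aged and 63.8 to 133 CPM in adult libraries. The 6 basal keratinocyte genes (0 of 6 called, median 0.15) went the other way, with sums of 10516 to 11796 CPM in aged and 9910 to 10320 CPM in adult libraries, which did not overlap. Of these lists, Lum of the fibroblast genes was at 0 in some libraries and no other gene was at 0 in any. Their part in the histone difference was not tested.

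**Figure D2:**
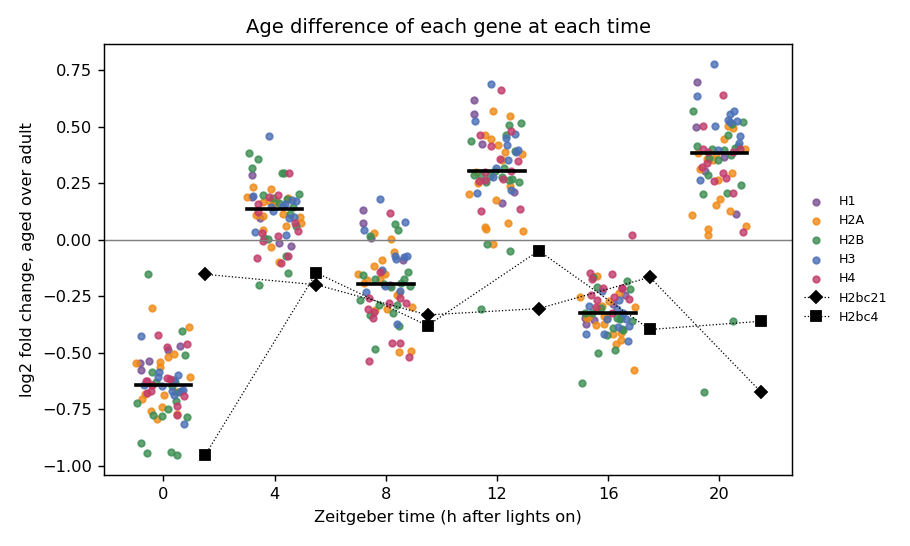
log2 fold change of aged over adult (y axis) for each of the 66 histone genes (points, coloured by class) at each Zeitgeber time (x axis), with the median as a bar; H2bc21 and H2bc4 are repeated in black beside the points. At ZT0 all 66 lie below 0, and at ZT20 all but H2bc21 and H2bc4 lie above 0.

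At the other times the signs differed, and few genes passed the test. At ZT20, 64 of the 66 genes had a positive fold change, with a median of 0.38 against 0.02 over all genes; 16 had all 4 aged libraries above all 4 adult ones (12.3% of all genes), among them H3c1, H3c10, H3c13, H4c3, H4c4 and H4f16. None was called higher by edgeR at ZT20 (9.54% of all genes were), 5 had an unadjusted p under 0.05 (34.7% of all genes), and neither DESeq2 nor limma called any higher; 1 was called higher without aged replicate 4 of ZT20. The summed level at ZT20 was 2531, 2382, 2936 and 2299 CPM in aged and 1662, 1708, 2340 and 2246 CPM in adult libraries, and these ranges overlapped, while the H3 and H4 sums did not. The H3 sum was 390 to 504 CPM in aged and 238 to 379 CPM in adult libraries. Sums of 3 other lists did not overlap at ZT20 either. The 8 suprabasal keratinocyte genes (5 called lower, median -0.82) summed to 7539 to 8324 CPM in aged and 10150 to 15570 CPM in adult libraries. The 12 immediate early and dissociation genes (7 called higher, median 0.74) summed to 8722 to 11725 CPM in aged and 3974 to 8610 CPM in adult libraries, and the 9 genes of the outer root sheath and hair follicle stem cells (4 called lower, median -0.60) to 4499 to 5237 CPM in aged and 5487 to 5846 CPM in adult libraries. The basal keratinocyte sum was 8263 to 11792 CPM in aged and 6691 to 9369 CPM in adult libraries, with overlap. No gene of these 4 lists was at 0 in any library, and their part in the histone values at ZT20 was not tested. The median fold change was 0.13 at ZT4, -0.20 at ZT8, 0.30 at ZT12 and -0.32 at ZT16. edgeR called 0 of the 66 at each of these times, where it called 0.632%, 2.19%, 1.1% and 1.97% of all genes; unadjusted p-values under 0.05 numbered 0 at ZT4, 8 at ZT8, 2 at ZT12 and 3 at ZT16, against 7.47%, 20.1%, 15.2% and 18.3% of all genes at these times. At ZT8, 3 genes (H2bc21, H4c8 and H4f16) had all 4 aged libraries below all 4 adult ones, against 4.37% of all genes. DESeq2 called 2 lower at ZT8 and 0 at the other 3 times, limma called 0 at all 4, and edgeR called 1 lower at ZT8 without aged replicate 2 or adult replicate 2 of ZT8 or adult replicate 1 of ZT12.

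The joint test of whether the age difference changed between times called 0 of the 66 by edgeR, against 0.283% of all genes; 27 had an unadjusted p under 0.05 (17.1% of all genes). The lowest adjusted p was 0.0605, for H4f16, followed by H4c3 (0.0905) and H4c4 (0.112). DESeq2 called 4 of the 66, with adjusted p-values of 0.00406 for H4f16, 0.0118 for H4c3 and 0.0236 for H4c4, and limma called 0. The count was 5 without adult replicate 2 of ZT12, 2 without aged replicate 3 of ZT12 or adult replicate 1 of ZT4, and 1 without aged replicate 4 of ZT4, ZT16 or ZT20. H4f16 averaged 18.0 ± 2.04 CPM in aged and 27.8 ± 2.96 CPM in adult epidermis at ZT0, and 22.4 ± 2.69 CPM in aged and 16.9 ± 1.35 CPM in adult epidermis at ZT20 (SD, n = 4 each). Its libraries of the 2 ages did not overlap at either time, and the sign was opposite.

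**Figure D3:**
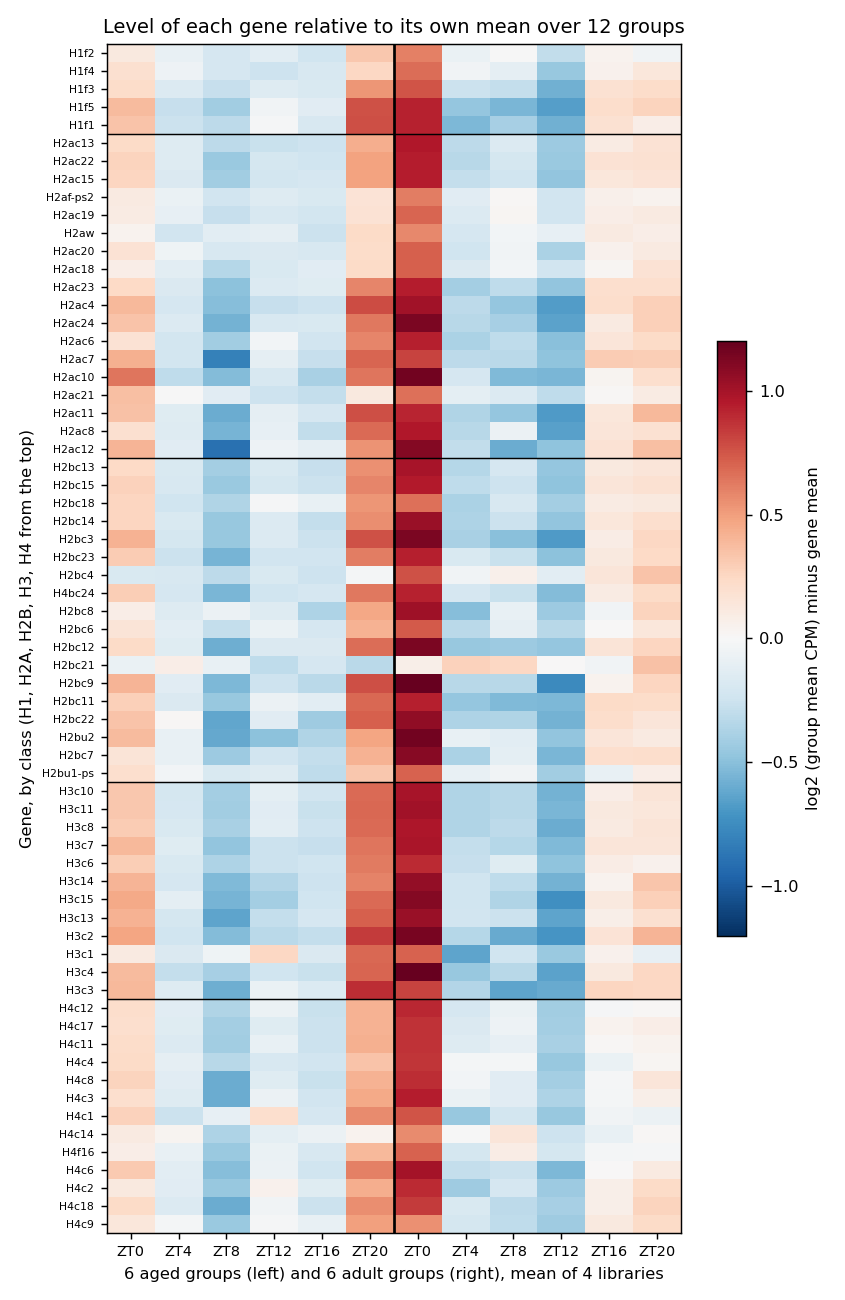
Mean level of each histone gene (rows, by class) in the 6 aged groups (left of the black line) and the 6 adult groups (right), as log2 CPM minus the gene's own mean over the 12 groups; red is above that mean and blue below. The highest column is ZT20 in aged epidermis for 63 of the 66 genes and ZT0 in adult epidermis for 65.

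Within each age the genes followed the time of day together. In aged epidermis 63 of the 66 genes had their highest mean at ZT20, against 20.6% of all genes, and 56 their lowest at ZT8. In adult epidermis 65 had their highest mean at ZT0, against 22.7% of all genes, and 59 their lowest at ZT12. The shares of all genes with their lowest mean at these times were not computed. The exceptions for the highest time were H2ac21, H4c14 and H2bc21 in aged and H2bc21 in adult epidermis. The summed level was 1.80 times as high at ZT20 (2537 ± 283 CPM) as at ZT8 (1406 ± 249 CPM) in aged epidermis, and 2.48 times as high at ZT0 (3325 ± 422 CPM) as at ZT12 (1340 ± 450 CPM) in adult epidermis (SD, n = 4 each). The ratio was largest for H3, 2.16 in aged and 2.97 in adult epidermis, and smallest for H1, 1.58 in aged and 2.22 in adult epidermis. In aged epidermis the suprabasal keratinocyte genes summed to 7539 to 8324 CPM at ZT20 and 7795 to 11385 CPM at ZT8, with overlap. At ZT4 they summed to 9061 to 17432 CPM and at ZT16 to 9195 to 17601 CPM, without overlap with ZT20. In adult epidermis they summed to 7341 to 11373 CPM at ZT0 and 6687 to 15628 CPM at ZT12, with overlap. Their part in the daily course of the histone genes was not tested.

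A 24 h cosine was called by edgeR for 18 of the 66 genes in aged epidermis, against 5.87% of all genes, and for 62 in adult epidermis, against 14.6%. The 18 were all among the 62, and 3.58% of all genes were called in both ages. At an unadjusted p under 0.05 the counts were 58 in aged (19.3% of all genes) and 65 in adult epidermis (29.4%). By class, 0 of 5 H1, 3 of 18 H2A, 4 of 18 H2B, 6 of 12 H3 and 5 of 13 H4 genes were called in aged epidermis; in adult epidermis the counts were 5, 18, 17, 11 and 11, and the 4 not called were H2bc21, H3c1, H4c1 and H4f16. Of the 14 genes with mostly unique sequence, 3 were called in aged and 12 in adult epidermis. The median peak was at ZT21.2 in aged and ZT22.4 in adult epidermis, and the median amplitude, the log2 distance from mean to peak, was 0.42 in aged and 0.55 in adult epidermis, against 0.10 in aged and 0.12 in adult epidermis over all genes. The amplitude was lower in aged epidermis in 63 of the 66 genes (60.0% of all genes). The peak was earlier in 64, by a median of 1.06 h, and the share of all genes with an earlier peak was not computed. These are descriptions, and the test of the difference between the rhythms called 0 of the 66 and 0 of all genes by edgeR. At an unadjusted p under 0.05 it gave 0 of the 66 (7.35% of all genes), and DESeq2 and limma called 0. The lowest unadjusted p was 0.0634, for H2bc4.

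The number of calls moved with the times and libraries used. Without ZT0, 1 gene was called in adult and 5 in aged epidermis; without ZT20, 1 was called in aged epidermis, without ZT8 1, without ZT4 32 and without ZT16 37, and without ZT12 40 were called in adult epidermis. The aged count also moved by over 1.5 times with single libraries: it was 37 without aged ZT16 replicate 3, 35 without aged ZT4 replicate 3, 31 without adult ZT12 replicate 3, 30 without aged ZT12 replicate 1 or adult ZT8 replicate 2, 11 without aged ZT12 replicate 3, 10 without aged ZT0 replicate 1, aged ZT8 replicate 3 or aged ZT20 replicate 1 or 2, 9 without aged ZT8 replicate 2 and 6 without aged ZT20 replicate 3. The adult count stayed between 55 and 63 whichever library was left out. DESeq2 called 38 genes in aged and 63 in adult epidermis, and limma called 16 in aged and 60 in adult epidermis. The shares of all genes called by DESeq2 and limma were not computed, so these counts have no background.

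H3c2 (Hist1h3b, chr13:23752345-23752840), an H3 gene, had the largest amplitude in both ages, 0.64 in aged (adjusted p = 0.0338) and 0.85 in adult epidermis (adjusted p = 0.00155). At its highest time in aged epidermis, ZT20, it had 17.6, 15, 23.9 and 18.0 CPM, and at ZT8 9.84, 4.55, 5.62 and 9.05 CPM. At its highest time in adult epidermis, ZT0, it had 21.4, 27.5, 25.0 and 17.8 CPM, and at ZT12 6.51, 8.72, 2.17 and 8.04 CPM. In each age the high and the low time did not overlap. With limma the adjusted p in aged epidermis was 0.0518. The next largest amplitudes in aged epidermis were those of the H3 genes H3c15 (0.61) and H3c13 (0.60) and the H2A genes H2ac7 (0.60) and H2ac10 (0.58); in adult epidermis they were those of the H2B genes H2bc9 (0.78) and H2bc3 (0.77) and the H2A genes H2ac12 (0.76) and H2ac10 (0.75). H2ac7 and H2ac10 were not called in aged epidermis with total counts in place of scaled ones, at adjusted p-values of 0.0556 for H2ac7 and 0.0612 for H2ac10, and H2ac10 was not called by limma (0.0638).

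**Figure D4:**
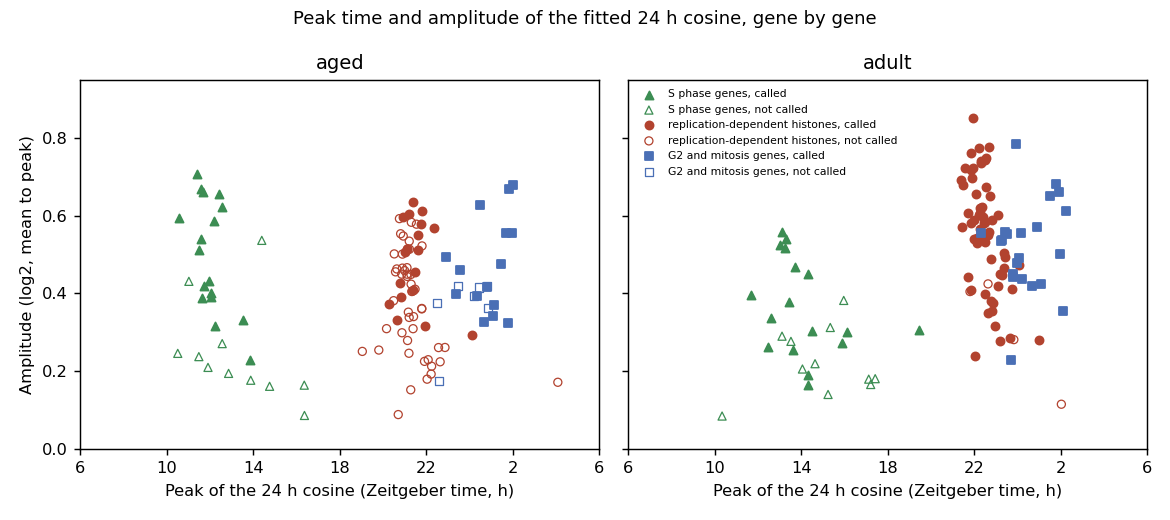
Peak time of the fitted 24 h cosine (x axis) against its amplitude on the log2 scale (y axis) in aged (left) and adult (right) epidermis, for the 66 histone genes, 28 S phase genes and 22 genes of G2 and mitosis; filled points were called. Called histone genes peak at a mean of ZT21.5 in aged and ZT22.5 in adult epidermis, between the S phase and the G2 and mitosis genes.

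Lists of S phase genes and of genes of G2 and mitosis give the fitted peaks a frame. S phase genes were called rhythmic in 17 of 28 cases in each age, against 5.87% of all genes in aged and 14.6% in adult epidermis. The peaks of the called genes had a mean at ZT12.0 in aged and ZT14.0 in adult epidermis. Mcm2, a subunit of the replicative helicase, peaked at ZT11.4 in aged and ZT13.1 in adult epidermis. Pcna, the sliding clamp of replication, was not called in aged (adjusted p = 0.267) or adult epidermis (0.280). Genes of G2 and mitosis were called in 15 of 22 cases in aged and in all 22 in adult epidermis, with median peaks at ZT0.72 in aged and ZT0.12 in adult epidermis. The summed S phase genes were highest at ZT12 in aged (966 ± 81.4 CPM) and at ZT16 in adult epidermis (800 ± 30.5 CPM), and the G2 and mitosis genes at ZT0 in aged (968 ± 74.5 CPM) and adult epidermis (959 ± 120 CPM; SD, n = 4 each). The order of these peaks was not tested.

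The 66 genes also varied together between libraries of the same group. After removal of each group's mean, log2 CPM over the 48 libraries had a median Pearson correlation of 0.89 over the 2145 pairs of genes, 0.91 within a class and 0.89 between classes; the libraries share depth and cell composition, and the values are descriptions. Genes outside the 66 were ranked by how closely they followed their mean. Genes without a symbol or with a provisional one (Gm with a number, LOC or Rik) were left out of this ranking. Of the rest, H2ax came first (r = 0.96 over 48 libraries), which encodes the H2A variant phosphorylated at DNA breaks. It was followed by Tubb5 (0.93), Pbk (0.93), Top2a (0.92) and Aurkb (0.92). Each of the 66 genes was also set against the mean of a list: the median r over the 66 was 0.87 with the mean of the G2 and mitosis genes, 0.75 with that of the S phase genes and 0.44 with that of the 15 genes of histone mRNA transcription and processing. Cell type lists ran from -0.51 for suprabasal keratinocyte genes, the only negative one, to 0.63 for Langerhans cell and leukocyte genes. Basal keratinocyte genes had 0.53, and immediate early and dissociation genes 0.56. Among the 66, H2bc21 (r = -0.37 with the mean of the others) and H4c14 (r = 0.17) stood apart, and the others began at 0.715.

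Over all times together, few of these genes were called for age. edgeR called 5 of the 66 lower in aged epidermis and 0 higher, against 33.1% of all genes called, 16.2% lower and 17% higher; the median log2 fold change was -0.07, against 0.01 over all genes, and 6 of the 66 had an unadjusted p under 0.05 (43.1% of all genes). DESeq2 called 6 lower and 0 higher, and limma 5 and 0. The 5 were H2bc4, H2bc21, H2ac18, H2ac19 and H2aw, all H2A or H2B genes. H2ac19 (log2 fold change -0.17, SE 0.06, adjusted p = 0.0222), H2ac18 (-0.16, SE 0.06, adjusted p = 0.0297) and H2aw (-0.15, SE 0.06, adjusted p = 0.0395) were also called at ZT0, and only H2bc4 and H2bc21 were called when ZT0 was left out. With total counts in place of scaled ones H2ac18 (adjusted p = 0.0605) and H2aw (0.0884) were not called. The count was 8 without aged ZT4 replicate 3, 3 without adult ZT0 replicate 2, adult ZT4 replicate 1 or adult ZT12 replicate 2, 2 without ZT8 or ZT16 and 10 without ZT12.

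The genes of highest level in each class were not called over all times. H2ac13 had 54.0 CPM at the lowest, 92.8 at the median and 154 at the highest of 24 aged libraries, and 46.0, 96.9 and 222 CPM in adult libraries (log2 fold change -0.11, adjusted p = 0.408). H4c12 had 50.9, 89.2 and 141 CPM in aged and 38.0, 84.0 and 188 CPM in adult libraries (-0.07, adjusted p = 0.596). The ranges overlapped in both, as they did in H2bc13 (-0.09, adjusted p = 0.613), H3c10 (0.01, adjusted p = 0.951) and H1f2 (-0.08, adjusted p = 0.470). The smallest p-values in the classes without a call were those of H1f4 (-0.08, adjusted p = 0.375), H3c1 (0.21, adjusted p = 0.266) and H4c8 (-0.15, adjusted p = 0.138).

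H2bc21 (Hist2h2be, chr3:96221072-96223738), is an H2B gene whose 75-base stretches were all unique, and it had its highest mean at ZT4 in aged and ZT20 in adult epidermis. Over the 24 libraries of each age it had 4.65 CPM at the lowest, 6.72 at the median and 8.31 at the highest in aged epidermis, and 6.15, 7.82 and 9.83 CPM in adult epidermis. The ranges overlapped, and the log2 fold change was -0.30 (SE 0.05, adjusted p = 8.88e-06). At ZT20 it had 6.65, 5.45, 4.65 and 6.39 CPM in aged and 9.83, 9.69, 7.73 and 9.66 CPM in adult libraries, without overlap, as in 13.7% of all genes (log2 fold change -0.67, SE 0.12, adjusted p = 2.30e-04); it was the only one of the 66 called at ZT20, where 10.5% of all genes were called lower. Its mean was lower in aged epidermis at all 6 times, and no rhythm was called in aged (adjusted p = 0.109) or adult epidermis (0.310). It was called over all times whichever library or time was left out, with adjusted p-values of at most 0.00151.

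H2bc4 had 12.3 CPM at the lowest, 16.4 at the median and 24 at the highest of the 24 aged libraries, and 14.1, 21 and 39.2 CPM in the adult libraries. The log2 fold change over all times was -0.38 (SE 0.08, adjusted p = 2.29e-04), and -0.27 (adjusted p = 0.0209) without ZT0. In adult epidermis it followed the common pattern, with an amplitude of 0.35 and a peak at ZT22.6 (adjusted p = 0.00599), and in aged epidermis its amplitude was 0.09 (adjusted p = 0.80). Its group means lay between 15.3 and 18.7 CPM at all 6 times in aged epidermis, and between 17.4 and 32.3 CPM in adult epidermis.

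**Figure D5:**
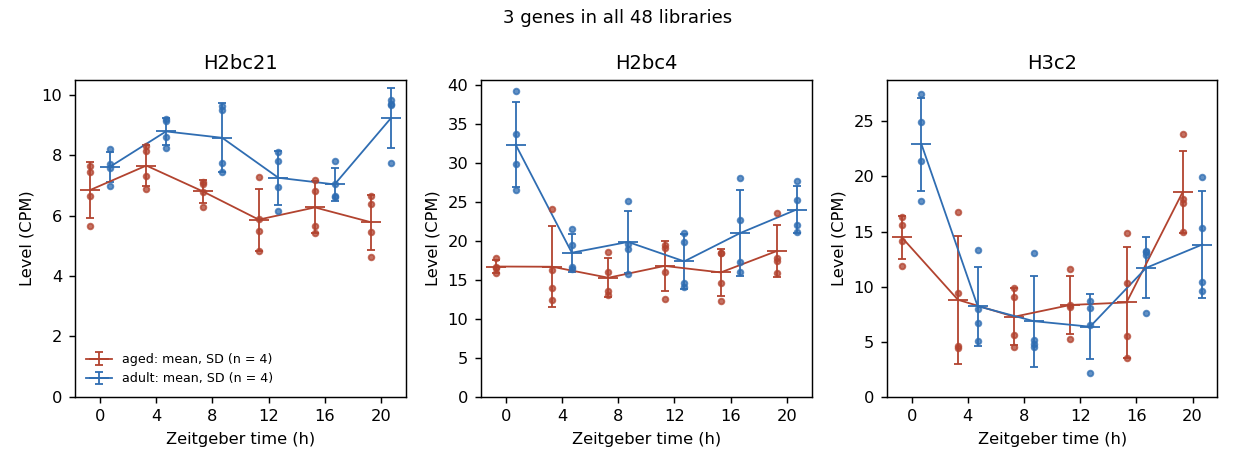
CPM (y axis) of H2bc21, H2bc4 and H3c2 in all 48 libraries against Zeitgeber time (x axis), aged to the left of adult; points are libraries, lines join means with SD bars (n = 4). H2bc21 is lower in aged epidermis on average at every time, H2bc4 is at 16.7 CPM in aged and 32.3 CPM in adult epidermis at ZT0, and H3c2 is highest at ZT20 in aged and at ZT0 in adult epidermis.

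Genes that serve histone supply were read from lists. Of 15 genes of histone mRNA transcription and 3′ processing, 1 was called higher and 4 lower over all times, near the 33.1% of all genes called. At ZT0, 0 of the 15 were called, against 4.46% of all genes. Npat, the co-activator that drives histone gene transcription, was higher, with a mean of 43.3 CPM in aged and 40.4 CPM in adult epidermis (log2 fold change 0.10, adjusted p = 0.00199). Upf1, a helicase that takes part in histone mRNA decay, was lower, at 79.1 CPM in aged and 87.8 CPM in adult epidermis (-0.14, adjusted p = 0.00448), as was the 3′ cleavage factor Cpsf2 (-0.10, adjusted p = 0.00893). Slbp, which binds the stem-loop, was at 31.5 CPM in aged and 28.6 CPM in adult epidermis (0.13, adjusted p = 0.146), and no rhythm was called for it in either age. Of 15 histone chaperone and supply genes, 3 were called higher, Hjurp (0.11), Nasp (0.13) and Mms22l (0.15), and 1 lower, Cabin1 (-0.08), a share below that of all genes. The 11 replacement and centromeric histones are made outside S phase too. Of these, 3 were called lower over all times, against 16.2% of all genes, and 0 at ZT0, against 2.02%. The 3 were H2aj (-0.20, adjusted p = 0.00675), Macroh2a1 (-0.12, adjusted p = 0.00199) and H1f0 (-0.11, adjusted p = 0.0279). The other 8 had log2 fold changes of 0.07 (H2az1), -0.05 (H2az2), -0.01 (H2ax), 0.16 (Macroh2a2), -0.06 (H3f3a), 0.07 (H3f3b), -0.24 (H1f10) and -0.10 (Cenpa), with adjusted p-values from 0.118 to 0.935. At ZT0, H2ax and H1f10 had all 4 aged libraries below all 4 adult ones, as in 8.92% of all genes. The rest of the 11 overlapped at ZT0.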

How the data were processed

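The authors deposited unnormalized counts, whole numbers for 24996 Entrez identifiers, which were used for 48 libraries made with a stranded total-RNA kit after ribosomal depletion (per the labels), 4 per age and time. Per the submitters' processing notes, Trim Galore, STAR 2.7.10a and featureCounts were used with the mouse genome mm10 (GRCm38); no source used here gives the annotation, strand or multi-mapping settings. RefSeq (GRCm38.p6) named 23476 identifiers and gave coordinates. Counts were analysed in R 4.3.3 with edgeR 4.0.16 (filterByExpr at 10 counts and 15 in total, 18044 genes left; TMM scaling; robust quasi-likelihood fits, either of the 12 groups, with 36 residual degrees of freedom, or of a cosine of 24 h in each age, with 42). P-values are two-sided and adjusted after Benjamini and Hochberg over all genes tested, and called means an adjusted p under 0.05. Fold changes (log2) have adult epidermis as denominator and a standard error (SE), and correlations used log2 CPM with a prior count of 2. Libraries held 40761084 to 49229498 counts, and the lowest count of any of the 66 genes in any library was 23. DESeq2 1.42.0, limma 3.58.1, other scalings and filters, a replicate block and leaving out libraries or times were alternatives. Shares of all genes called are those of the main edgeR fits of all 48 libraries, and none was computed for the alternatives. The code was tested on simulated counts. Genes named singly were the highest per kb and the smallest p for age in each class, every gene called for age, the largest amplitudes, the 3 smallest p-values for age by time and for the rhythm difference, the 2 called genes of smallest p at each time, every replacement histone and up to 4 genes of each other list by p for age; H2bc8, H2bc12, H4c14, the other genes called at ZT0 and the exceptions to a count were named after their values were seen. The members and lists were chosen with earlier results of these data known.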

Additional observations from a re-analysis of the deposited data

Results flagged for a closer look

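Among 144 sets of 4 libraries examined for a library far from the other 3, 9 were flagged; chance alone flags about 1 in 20 sets. Adult replicate 2 of ZT8 was high in the summed level of the 66 genes (2301 CPM, against 1306 to 1443 CPM in the other 3), in the sums of H1 (338 CPM), H2B (561 CPM) and H3 (360 CPM), and in H3c2 (13 CPM, against 4.53 to 5.11 CPM); its G2 and mitosis genes summed to 802 CPM, against 377 to 443 CPM, and its S phase genes to 906 CPM, against 593 to 722 CPM. Aged replicate 4 of ZT20 was low in the H1 sum (307 CPM, against 388 to 398 CPM), and aged replicate 2 of ZT0 was low in H2ac18 (16.1 CPM, against 22.1 to 23 CPM). H2bc21 was low in adult replicate 3 of ZT20 (7.73 CPM, against 9.66 to 9.83 CPM), and H3c2 was low in adult replicate 3 of ZT16 (7.57 CPM, against 12.8 to 13.2 CPM).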

How the results depend on the processing

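Counts of the 66 genes called lower over all times (5) were 3 with total counts in place of scaled ones, 2 at an adjusted p under 0.01, 2 without ZT0, 2 without ZT8, 10 without ZT12 and 2 without ZT16. At ZT0 (12 lower) they were 6 with total counts, 3 at an adjusted p under 0.01 and 1 without the lowest aged and the highest adult library. DESeq2 called 2 lower at ZT8, 4 for age by time and 38 for the rhythm in aged epidermis (18), and the stricter filter (1 CPM in 24 libraries) called 1 for age by time. The rhythm count in aged epidermis was 3 at an adjusted p under 0.01, 5 without ZT0, 32 without ZT4, 1 without ZT8, 37 without ZT16 and 1 without ZT20; that in adult epidermis (62) was 1 without ZT0 and 40 without ZT12. The rhythm settings without a time, the share among mostly unique genes (85.7% called in adult epidermis) and the setting without 2 libraries were chosen after seeing the data. The cause of these changes was not tested. Leaving out 1 library at a time gave 3 to 8 lower over all times, 2 to 16 lower at ZT0, 0 to 1 lower at ZT8, 0 to 1 higher and 1 lower at ZT20, 0 to 5 for age by time, 6 to 37 for the rhythm in aged and 55 to 63 in adult epidermis, and 0 in every setting for the rhythm difference, for ZT4, ZT12 and ZT16 and for genes higher over all times. No named gene reversed its direction in a comparison where it was called by the main fit or the alternative. Changes of sign in genes not called were not counted. H3c10 over all times, for example, went from 0.01 to -0.05 without aged ZT4 replicate 3. The group means of the summed level moved by less than 1 SD without scaling or without the gene of highest count.

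The main fits did not pair samples by replicate number. Over 24 pairs of same-numbered aged and adult libraries of a time, the deviations from the group means had a median correlation of 0.07 (-0.60 to 0.58), with 11 over 0.1. With 4 libraries per group, whose deviations sum to 0, these values cannot decide whether samples were paired or shared a batch. With the replicate block, 5 genes were called lower over all times, 11 at ZT0 and 1 at ZT20, 17 for the rhythm in aged and 62 in adult epidermis, and 0 for age by time and for the rhythm difference; H2ac10 was no longer called in aged epidermis (adjusted p = 0.0509).

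With 40761084 or more counts per library, each of the 66 genes had at least 23 counts in every library. No source used here gives the read length or the treatment of shared reads, so that values of H2ac18, H2ac19 and other near copies may mix genes.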

Other observations

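The replacement and centromeric histones were also read by time. At ZT20, 3 of the 11 were called lower in aged epidermis and 0 higher by edgeR, against 10.5% of all genes lower and 9.54% higher: H2aj (log2 fold change -0.41, adjusted p = 0.0302), Macroh2a1 (-0.27, adjusted p = 0.0121) and H3f3a (-0.32, adjusted p = 0.0340). Of the 11, 2 were called rhythmic in aged epidermis, against 5.87% of all genes, and 3 in adult epidermis, against 14.6%. Cenpa, the centromeric H3 variant, peaked at ZT2.51 in aged and ZT2.46 in adult epidermis with amplitudes of 0.64 in aged and 0.67 in adult epidermis, and H1f0, a linker histone of differentiated cells, at ZT3.45 in aged and ZT4.35 in adult epidermis with an amplitude of 0.19 in each. H2ax was called in adult epidermis (amplitude 0.48, peak at ZT22.5, adjusted p = 0.00266) and not in aged epidermis (0.35, ZT22.0, adjusted p = 0.0570); the test of the difference between the ages gave H2ax an adjusted p of 0.956 by edgeR.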
